A study of Xerophyta schlechteri with 51 samples.

Results

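These results concern 97 genes of the resurrection plant Xerophyta schlechteri whose transcripts were lower in senescent than in non-senescent leaf tissue before any drying, out of 21815 entries in the table. The leaf blades came from 17 groups of 3 libraries, 51 in all. Senescent tissue (ST) and non-senescent tissue (NST) were sampled at full turgor, at 4 stages of drying (75%, 55%, 35% and <10% relative water content, RWC, a leaf's water relative to its fully hydrated state), and again 48 h after rehydration. Pre-senescent tissue (PST) was sampled at the same stages apart from full turgor. The labels name no genotype, treatment other than drying and rewatering, or plant age, and do not settle whether the water content of a stage was measured in each tissue, since 1 label field ties it to NST while the sample titles give it beside every tissue. The labels do not tell whether the libraries of a group are from different plants. The p-values therefore reflect how much these libraries vary, part of which may be technical. The tissue labels could not be checked against marker genes, because gene names are not part of the table.

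The 97 members were chosen by their measured values at full turgor and in dry NST, on the scale FPKM + 1 (FPKM, fragments mapped to a transcript, scaled to its length and to the library's total). Among the 20783 IDs that occur once, 224 had an ST value at most 1/1.5 of the NST value in each of the 3 pairs of columns with the same number. Of these, 188 had a mean of at least 5 in NST at full turgor, where the mirrored fold and level rule gave 219 genes higher in ST. The last condition kept genes whose mean in NST at <10% RWC was over 1/8 and under 4 times that at full turgor, which removed 90 genes on the low side and 1 on the high side. For 30 of the 97 members the mean at full turgor was at most 8, so the lower limit could not remove them whatever their dry level. All 97 passed the filter for testing, which asked for 3 or more libraries with an FPKM of 1 or higher. The values at full turgor and every comparison with dry NST are therefore given as description, without a test.

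Leaf senescence is the ordered dismantling of a leaf, in which chlorophyll and protein are broken down and nutrients are exported before the cells die. Resurrection plants hold their leaves alive through near-complete water loss, and in Xerophyta the photosynthetic apparatus is taken apart on drying and rebuilt on rewatering. In these plants older leaves and leaf tips commonly fail to recover and senesce, while the rest of the leaf survives.

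The summed FPKM of a library lay between 489069 and 1064467, and between 13775 and 16157 entries reached an FPKM of at least 1. The number of fragments per library is not known, so the precision of low values comes from the replicates alone. The members' median standard deviation between the 3 libraries of a group lay between 0.301 (PST at <10% RWC) and 0.520 (rehydrated PST) on the log2(FPKM + 1) scale. The members took 0.308% to 3.51% of a library's summed FPKM. The rehydrated NST libraries 0 and 1 resembled each other more than any other pair of replicates, with a root mean square log2 difference of 0.461 against 0.573 for the next pair.

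At full turgor most members were transcripts of low to moderate abundance, and their medians lay lower in ST by the choice. The median over members was 3.26, 4.19 and 4.48 FPKM in the ST libraries, against 8.32, 8.32 and 9.89 FPKM in the NST libraries. In NST 13 members had a mean under 5 FPKM, 41 had 5 to 10, 32 had 10 to 50, 5 had 50 to 100 and 6 had over 100 FPKM. The pair ratios of NST over ST had medians of 2.14, 1.74 and 2.01 in pairs 0, 1 and 2, and the highest single ratio was 10.85. For 61 of the 97 members all 3 ST libraries lay below all 3 NST libraries, as did 5.64% of all tested entries. The rule used this contrast, so these values describe the choice. The members just inside the fold limit had a smallest pair ratio of 1.501, 1.502 and 1.504, and the genes just outside it had 1.492, 1.488 and 1.486. Just inside the lower limit on dry NST the ratio of dry to full-turgor NST was 0.1255, and just outside it was 0.1249. The 3 members just inside the level limit had means of 5.02, 5.04 and 5.05 in NST at full turgor, and the genes just below it 4.94, 4.86 and 4.79. Since these are bulk tissue samples, fewer cells that express a gene and less RNA per cell cannot be told apart.

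The median member was low in every tissue throughout drying and high again in rewatered NST, with rewatered PST between NST and ST. In ST the mean of the 3 library medians was 3.98 ± 0.637 FPKM at full turgor, 0.923 ± 0.0839 at 75%, 0.960 ± 0.0624 at 55%, 1.14 ± 0.269 at 35%, 0.990 ± 0.115 at <10% RWC and 1.20 ± 0.205 after rehydration (SD, n = 3 each). In PST it was 1.18 ± 0.170 FPKM at 75%, 1.08 ± 0.281 at 55%, 1.01 ± 0.176 at 35%, 1.15 ± 0.121 at <10% RWC and 3.52 ± 0.939 after rehydration (SD, n = 3 each). In NST it was 8.84 ± 0.906 FPKM at full turgor, 1.84 ± 0.397 at 75%, 1.46 ± 0.240 at 55%, 1.58 ± 0.253 at 35%, 1.69 ± 0.240 at <10% RWC and 13.8 ± 1.73 after rehydration (SD, n = 3 each). The rehydrated NST medians did not overlap with those of any other group of libraries in the plot of medians by library.

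**Figure D1:**
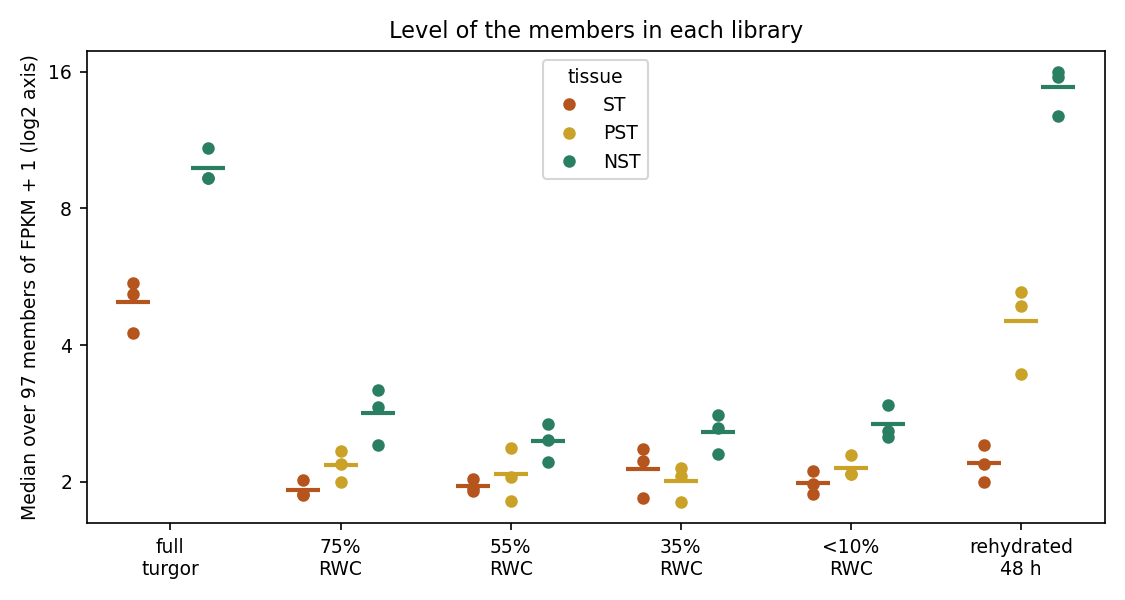
Median of FPKM + 1 over the 97 members in each library (log2 axis) by stage and tissue, with 1 point per library and a bar at the mean of the 3 library medians. The 3 rehydrated NST libraries have medians of 11.79 to 14.96 FPKM, the rehydrated PST libraries 2.46 to 4.24 FPKM and the rehydrated ST libraries 1.00 to 1.41 FPKM.

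Most members stood well below their full-turgor level at the first stage of drying. By the mean of log2(FPKM + 1), 82 of the 97 members were lower in ST at 75% RWC than in ST at full turgor. In NST at 75% RWC 73 of the 97 members stood at least 1 lower on the log2(FPKM + 1) scale than in NST at full turgor, and 9 stood higher. NST at 75% RWC also lay below ST at full turgor for 72 members. Relative to NST at full turgor the median member stood at a log2 difference of -2.30 in ST at 75% RWC, -2.09 in PST at 75% RWC and -1.74 in NST at 75% RWC. It stood at -2.15 in rehydrated ST, -1.47 in rehydrated PST and 0.27 in rehydrated NST. High values in NST at full turgor and low values in ST at full turgor were what chose the members, so these differences from full turgor follow in part from the choice and are not tested.

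Many members were near the lower end of what the table records while leaves dried. Between 44 and 54 members reached 1 FPKM in single ST libraries from 75% to 35% RWC, against 50 to 63 in NST libraries of these stages and all 97 in NST at full turgor. The means of 41 members were under 1 FPKM at all 3 of these stages in ST, and those of 25 members in NST. At 75% RWC 5 members were listed at 0 in all 3 ST libraries and 3 members in all 3 NST libraries. By the mean of log2(FPKM + 1), the highest group was rehydrated NST for 50 members and NST at full turgor for 31. On this scale no member was highest in ST at full turgor, 75%, 55% or 35% RWC. The same held for PST at 75% and 55% RWC and for NST at 75% and <10% RWC. The choice of members fixed this in advance for ST at full turgor and favoured NST at full turgor. The remaining 16 members peaked in other groups, 5 of them in NST at 55% RWC and 3 each in dry ST and rehydrated PST. By mean FPKM, to which a single high library adds more, 48 members were highest in rehydrated NST, 29 in NST at full turgor, 6 in NST at 55% RWC and 3 in NST at 75% RWC.

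**Figure D2:**
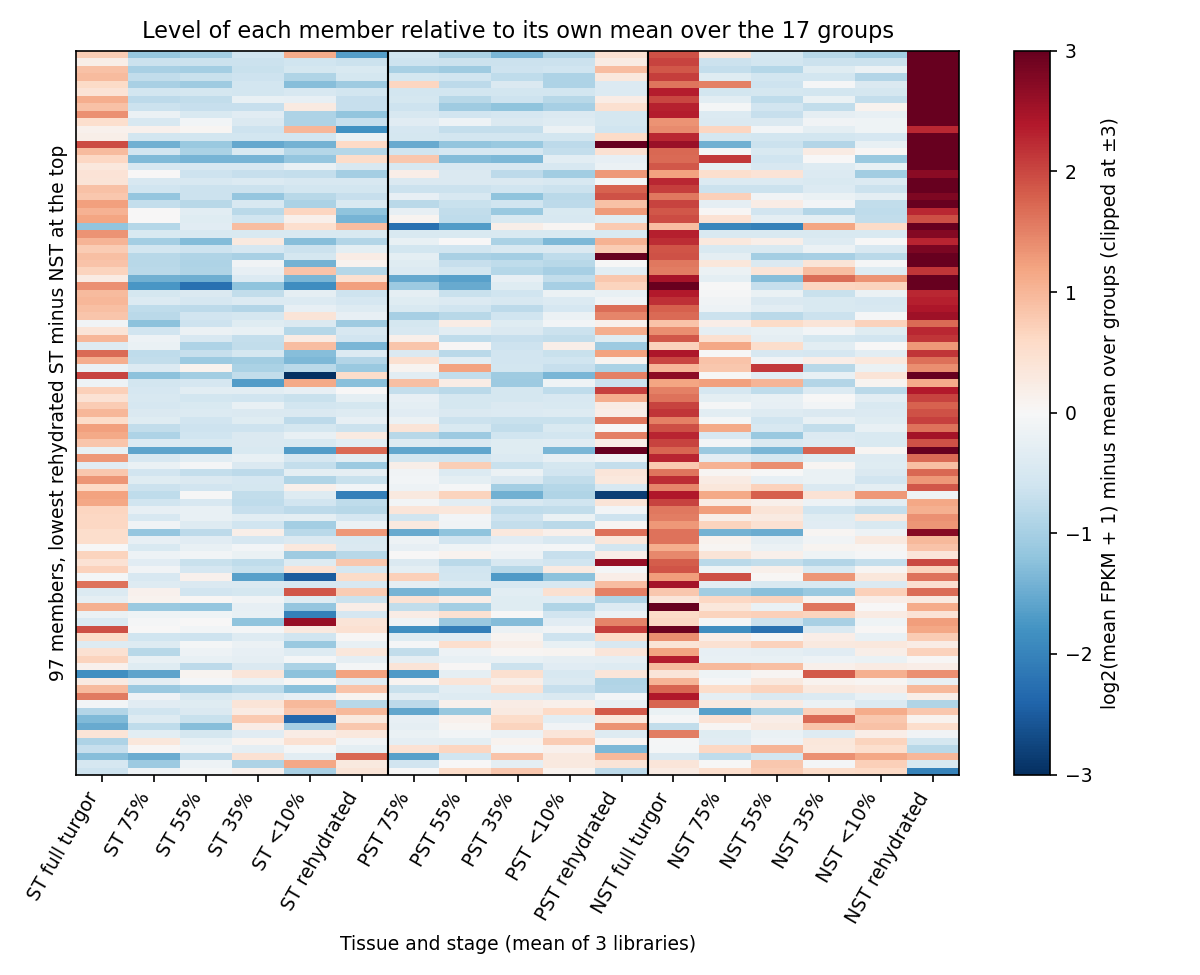
Level of each of the 97 members (rows) in each of the 17 groups (columns, mean of 3 libraries), as log2(mean FPKM + 1) minus the member's own mean over groups, with colours clipped at 3. Rows are ordered by the difference between rehydrated ST and rehydrated NST, and most upper rows are darkest in rehydrated NST, with NST at full turgor next.

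Whether the difference at full turgor was also present while leaves dried was asked in libraries that the choice of members did not use. Averaged over 75%, 55% and 35% RWC, 20 members were lower in ST than in NST and 1 was higher. These are 20.6% and 1.03% of the members, where limma called 5.98% of all tested entries lower and 7.21% higher. limma was fitted to log2(FPKM + 1) over all libraries, and a call is a Benjamini-Hochberg adjusted p under 0.05 over 18717 entries. The median difference was -0.32 over the members and -0.01 over all entries, and 80 of the 97 members had a negative and 16 a positive estimate. For 12 members the difference was at least 1 downward on the log2 scale, for 2 at least 1 upward, and for 83 under 1 in either direction. Many members were under 1 FPKM at these stages, and this scale understates differences at low values. Libraries with the same number deviated together in the ST and NST pair of each of these stages, and in the PST and NST pair, and with the number as a block within a stage 41 members were lower and 2 higher. With the block 18.4% of all entries were lower and 18.2% higher. Without NST at 55% RWC library 2 the unblocked total of 21 was 13, where limma called 1501 of all 18717 entries. A limma fit restricted to the 6 groups compared gave 11, and called 1244 of all 18717 entries.

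At single stages few members passed the threshold without the block. At 75% RWC limma called 0 members lower and 1 higher in ST, with 22 at an unadjusted p under 0.05, where 0.871% of all entries were lower and 1.18% higher. The median member difference was -0.47, against -0.02 over all entries. With the block 27 members were lower and 4 higher at this stage, where 13.4% of all entries were lower and 12.9% higher.

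At 55% RWC limma called 0 members lower and 1 higher in ST, with 16 at an unadjusted p under 0.05, where 0.353% of all entries were lower and 0.657% higher. With the block 19 members were lower and 2 higher, where 10.2% of all entries were lower and 9.64% higher. At 35% RWC limma called 0 members in either direction, with 8 at an unadjusted p under 0.05, where 0% of all entries were lower and 0.0107% higher. With the block 4 members were lower and 0 higher at 35% RWC, where 0.166% of all entries were lower and 0.753% higher. The median member differences were -0.23 at 55% and -0.23 at 35% RWC. The same gene, Xvis03_206327, was the single higher call at 75% and at 55% RWC.

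Leaving out 1 library moved the unblocked counts of these single stages. At 75% RWC the total was 0 without NST library 0, NST library 1 or ST library 0, 2 without ST library 1 and 9 without NST library 2. In the same order, these fits called 42, 102, 11, 714 and 1446 of all 18717 entries. At 55% RWC the total was 0 without NST library 2 or ST library 1, 2 without NST library 1 and 6 without ST library 2. Calls over all entries were then 9, 6, 78 and 881. At 35% RWC the total was 0 whichever of the 6 libraries was left out. Calls over all entries were 24 without ST library 2 and 0 without any other library of this stage. The member totals therefore moved along with the calls over the whole table.

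**Figure D3:**
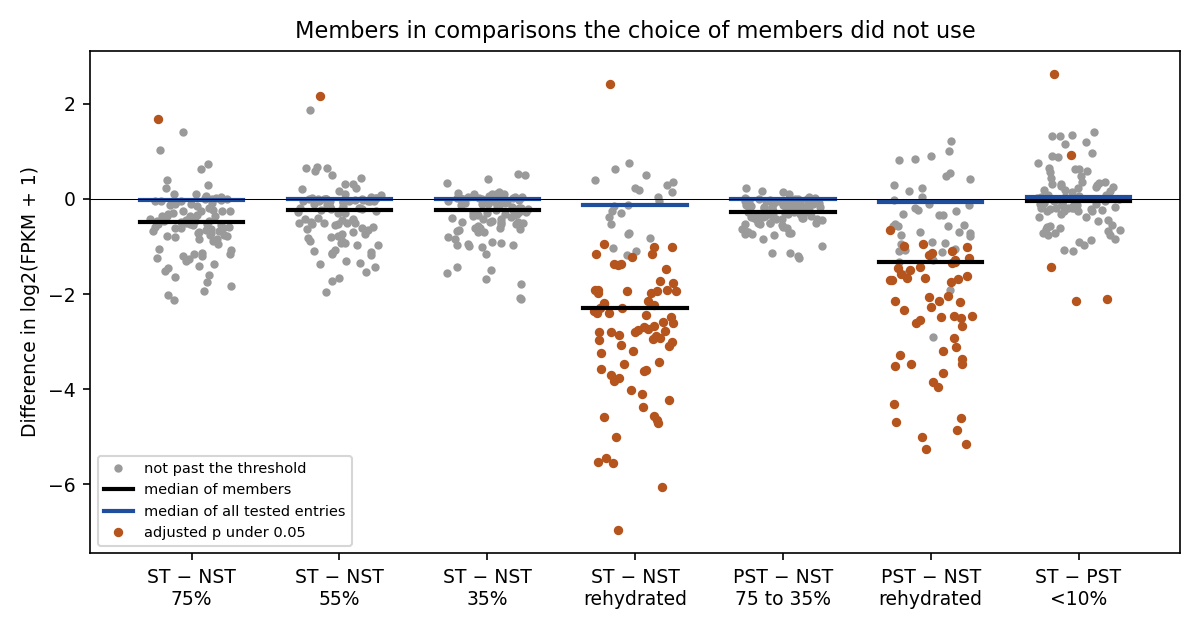
Difference in log2(FPKM + 1) of each of the 97 members in 7 comparisons that share no library with the choice of members, with 1 point per member. Orange points have a limma adjusted p under 0.05, the black bar is the median of the members and the blue bar that of all 18717 tested entries. The members spread widely below 0 after rehydration, with a median of -2.30 for ST minus NST and -1.32 for PST minus NST. In dry ST minus PST their median is -0.04, with a range of -2.145 to 2.633.

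The table gives IDs without names, so 4 members are shown in full, the 2 with the lowest and the 2 with the highest difference between ST and NST averaged over 75% to 35% RWC. Xvis03_215608 was the most abundant of the 4. It stood at 2878.87, 4510.57 and 3224.96 FPKM in ST at full turgor, against 6586.35, 6840.99 and 4866.79 FPKM in NST. At 75% RWC it stood at 264.5, 1624.24 and 640.02 FPKM in ST, 419.23, 2058.87 and 982.19 FPKM in PST, and 1149.71, 4290.07 and 2537.51 FPKM in NST. Each tissue was lowest in library 0 and highest in library 1 at this stage, and within each number ST was the lowest and NST the highest. At 55% RWC it stood at 1560.74, 353.85 and 843.52 FPKM in ST, 1691.86, 986.22 and 1750.27 FPKM in PST, and 4198.43, 1291.34 and 3169.11 FPKM in NST. At 35% RWC the values were 724.16, 1122.77 and 1267.17 FPKM in ST, 1290.74, 1608.72 and 4606.34 FPKM in PST, and 2120.7, 2274.02 and 2350.43 FPKM in NST. ST and NST overlapped at 75% and 55% RWC and did not at 35% RWC. Over these stages ST minus NST was -1.57 on the log2 scale (standard error 0.36, limma, adjusted p = 0.00334).

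In dry leaves Xvis03_215608 stood at 588.24, 538.6 and 1160.18 FPKM in ST, 970.39, 1032.69 and 1380.95 FPKM in PST, and 1986.69, 1764.33 and 2730.55 FPKM in NST. After rehydration it stood at 3078.21, 3983.66 and 2916.08 FPKM in ST, 409.33, 967.38 and 1592.17 FPKM in PST, and 3505.05, 3939.38 and 3317.61 FPKM in NST. Rewatered ST overlapped with rewatered NST for this gene, and PST lay below both. The log2 difference from NST was -0.12 in ST (standard error 0.63, limma, adjusted p = 0.901), and -2.06 in PST (standard error 0.63, limma, adjusted p = 0.0107).

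Xvis03_223563 was the member with the lowest difference during drying. It stood at 21.79, 30.56 and 10.82 FPKM in ST at full turgor, against 34.01, 75.43 and 38.57 FPKM in NST. At 75% RWC it stood at 4.64, 4.98 and 4.35 FPKM in ST, 14.7, 11.72 and 5.82 FPKM in PST, and 30.65, 20.76 and 9.00 FPKM in NST. The 3 tissues were ordered ST, PST, NST within each number at 75% RWC, and ST lay below all PST and NST libraries. At 55% RWC it stood at 0.94, 3.01 and 21.48 FPKM in ST, 6.90, 4.11 and 31.40 FPKM in PST, and 16.61, 6.94 and 72.94 FPKM in NST, with library 2 the highest in every tissue. At 35% RWC the values were 2.82, 1.49 and 9.96 FPKM in ST, 3.66, 0.95 and 2.94 FPKM in PST, and 15.34, 10.42 and 9.81 FPKM in NST. ST and NST overlapped at 55% and 35% RWC. Over these stages ST minus NST was -1.71 on the log2 scale (standard error 0.42, limma, adjusted p = 0.00543). When limma was fitted to the 6 groups alone, the adjusted p = 0.0543.

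In dry leaves Xvis03_223563 stood at 8.96, 5.99 and 3.78 FPKM in ST, 5.00, 6.13 and 1.08 FPKM in PST, and 6.82, 30.66 and 29.58 FPKM in NST. After rehydration it lay below its full-turgor range in both ST and NST. The values were then 1.27, 1.56 and 1.07 FPKM in ST, 0.50, 0.39 and 0.16 FPKM in PST, and 10.52, 6.60 and 6.27 FPKM in NST, without overlap between the tissues. Both differences from rewatered NST passed the threshold, at -1.91 in ST (standard error 0.72, limma, adjusted p = 0.0247) and -2.68 in PST (standard error 0.72, limma, adjusted p = 0.00439).

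Xvis03_206327 was the 1 member higher in ST during drying, although it was lower at full turgor. It stood at 49.07, 71.67 and 47.13 FPKM in ST at full turgor, against 131.13, 128.96 and 77.05 FPKM in NST. At 75% RWC it stood at 25.46, 7.05 and 9.09 FPKM in ST, 1.09, 1.66 and 6.67 FPKM in PST, and 3.70, 1.93 and 3.68 FPKM in NST. At 55% RWC the values were 10.98, 18.91 and 8.82 FPKM in ST, 2.25, 4.71 and 0.71 FPKM in PST, and 1.69, 3.67 and 1.11 FPKM in NST. ST lay above every PST and NST library at both stages. At 35% RWC ST had 14.14, 16.94 and 8.77 FPKM, PST had 12.27, 11.52 and 12.47 FPKM, and NST had 9.76, 10.43 and 9.60 FPKM. At this stage ST overlapped with both other tissues, and PST lay above NST. ST minus NST was 1.69 on the log2 scale at 75% RWC (standard error 0.42, limma, adjusted p = 0.0301), 2.15 at 55% (standard error 0.42, limma, adjusted p = 0.00912) and 0.34 at 35% RWC (standard error 0.42, limma, adjusted p = 1). Averaged over the 3 stages it was 1.39 (standard error 0.24, limma, adjusted p = 0.0002).

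The same gene was at like levels in dry leaves, with 19.48, 16.75 and 15.02 FPKM in ST, 9.38, 11.56 and 17.11 FPKM in PST, and 17.74, 15.00 and 9.90 FPKM in NST. After rehydration Xvis03_206327 stood at 30.52, 14.48 and 12.62 FPKM in ST, 68.19, 55.53 and 60.44 FPKM in PST, and 32.78, 32.84 and 30.59 FPKM in NST. PST lay above both other tissues, but neither PST nor ST differed from NST past the threshold (limma, adjusted p = 0.0962 for PST and adjusted p = 0.101 for ST).

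Xvis03_210497 had the second highest estimate during drying and did not pass the threshold without the block. It stood at 2.43, 0 and 6.20 FPKM in ST at full turgor, against 20.65, 1.47 and 25.31 FPKM in NST, and the tissues overlapped with library 1 the lowest in both. At 75% RWC it stood at 4.16, 1.47 and 5.90 FPKM in ST, 0.35, 0 and 2.27 FPKM in PST, and 0, 0 and 3.82 FPKM in NST. At 55% RWC the values were 6.26, 8.03 and 3.75 FPKM in ST, 0.83, 4.32 and 0.12 FPKM in PST, and 0.46, 2.93 and 0.10 FPKM in NST. By 35% RWC it stood at 13.01, 23.43 and 10.87 FPKM in ST, 13.13, 13.37 and 0.25 FPKM in PST, and 12.35, 36.45 and 8.63 FPKM in NST. ST and NST overlapped at 75% and 35% RWC, and at 55% RWC ST lay above NST. Over these stages ST minus NST was 1.06 on the log2 scale (standard error 0.52, limma, adjusted p = 0.171). With the block limma gave an adjusted p = 0.00373.

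In dry leaves Xvis03_210497 stood at 5.04, 6.83 and 22.97 FPKM in ST, 3.49, 11.02 and 9.90 FPKM in PST, and 2.19, 12.59 and 21.52 FPKM in NST. After rehydration it stood at 11.77, 16.98 and 18.92 FPKM in ST, 12.42, 20.62 and 9.60 FPKM in PST, and 205.13, 221.5 and 59.69 FPKM in NST. Every rewatered NST library lay above every other library of the series for this gene. The log2 difference from rewatered NST was -3.08 in ST (standard error 0.89, limma, adjusted p = 0.00364) and -3.27 in PST (standard error 0.89, limma, adjusted p = 0.00475).

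**Figure D4:**
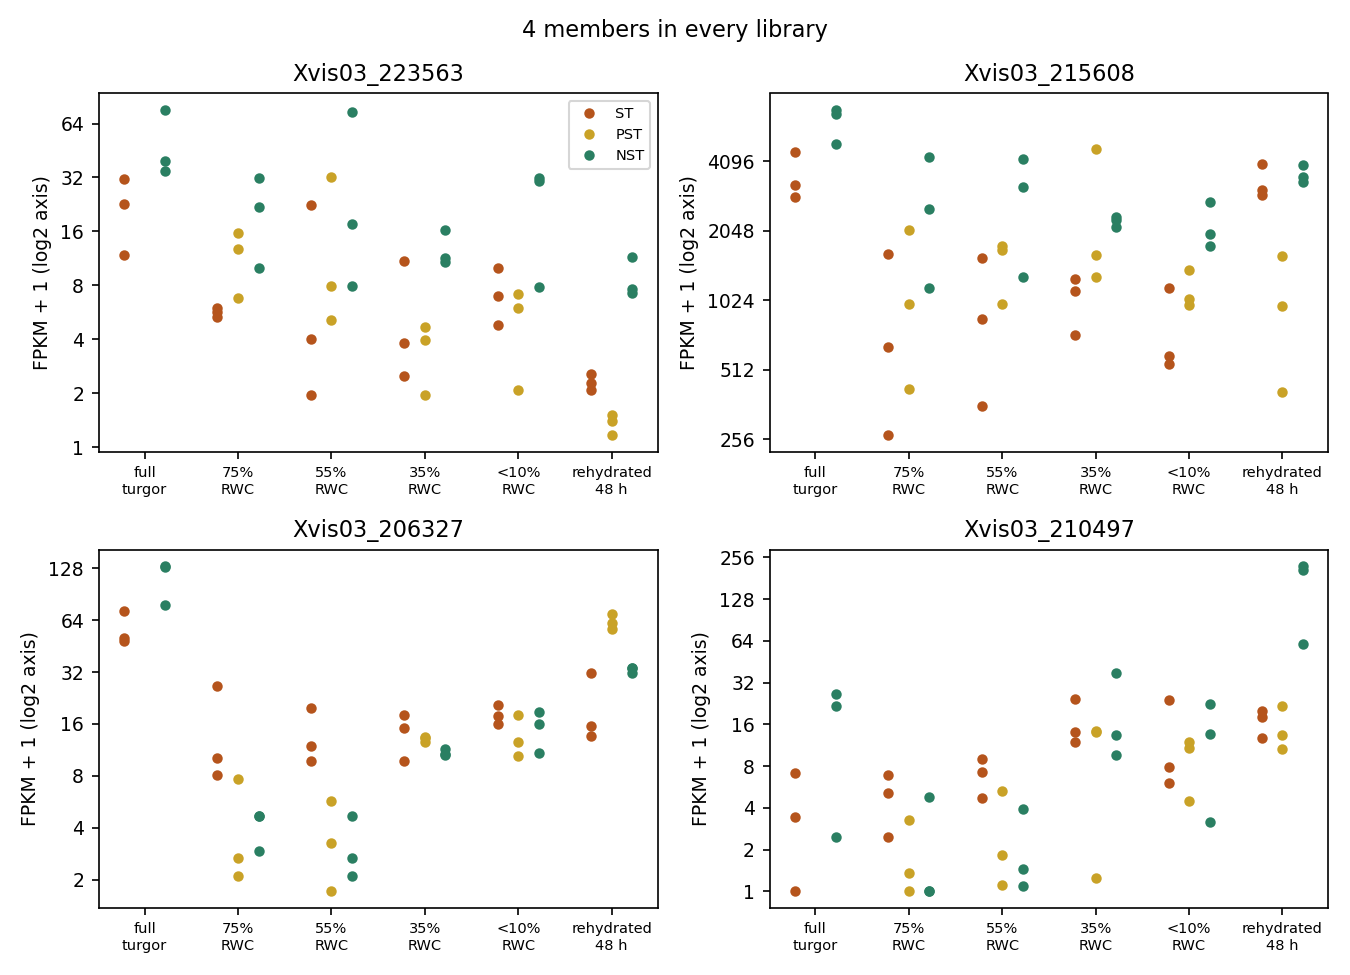
FPKM + 1 (log2 axis) of the 4 members shown in full, in every library, by stage and tissue, with 1 point per library. Xvis03_206327 is higher in ST than in the other tissues at 75% and 55% RWC, and Xvis03_210497 reaches 59.69 to 221.5 FPKM in rehydrated NST.

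PST, which had no library at full turgor, lay slightly below NST during drying for most members, with no member called without the block. Averaged over 75% to 35% RWC limma called 0 members lower and 0 higher in PST than in NST, with 16 at an unadjusted p under 0.05, where 0.00534% of all entries were lower and 0% higher. The median difference was -0.27 over members and -0.01 over all entries, and 87 of the 97 estimates were negative. With the block 4 members were lower and 0 higher, where 0.256% of all entries were lower and 0.406% higher. PST and ST share the NST libraries in these comparisons.

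In dry leaves the median member differed little between ST and PST. At <10% RWC 3 members were lower and 2 higher in ST than in PST (limma), where 5.06% of all entries were lower and 6.17% higher. The median member difference was -0.04, with 52 negative and 42 positive estimates, and the members ranged from -2.145 to 2.633. Means reached 1 FPKM for 51 members in dry ST and 55 in dry PST, so many members lay near the lower end of the table. With the block 7 members were lower and 9 higher, where 13.1% of all entries were lower and 17% higher. The unblocked total of 5 was 1 without ST library 0, and 3, 2 and 2 without PST libraries 0, 1 and 2. In the same order, these fits called 729, 1664, 1495 and 1142 of all 18717 entries, against 2103 in the full fit. A limma fit restricted to these 2 groups called 0 members, with 14 at an unadjusted p under 0.05, and called 1 of all 18717 entries.

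Between 75% and 35% RWC few members changed further. In NST 2 members were lower and 6 higher at 35% than at 75% RWC, where limma called 11.7% of all entries lower and 11.1% higher. Xvis03_206327 and Xvis03_210497 were among the 6, with log2 changes of 1.45 (standard error 0.42, limma, adjusted p = 0.0125) and 3.32 (standard error 0.89, limma, adjusted p = 0.00753). The total of 8 was 2, 4 and 13 without NST at 75% RWC libraries 0, 1 and 2, where limma called 1420, 2209 and 5536 of all 18717 entries. A limma fit restricted to the 2 groups called 0 members, with 13 at an unadjusted p under 0.05, and called 0 of all 18717 entries. In ST limma called 0 members lower and 0 higher, with 2 at an unadjusted p under 0.05, where 0.0107% of all entries were lower and 0.0107% higher. The members' median change was -0.10 in NST and 0.03 in ST. Whether these changes differed between the tissues was not tested.

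Rewatering separated the tissues for most members. After rehydration 73 members were lower and 1 was higher in ST than in NST, 75.3% and 1.03% of the members, where limma called 30.7% of all entries lower and 22.9% higher. The median difference was -2.30 over members and -0.13 over all entries. The difference reached at least 1 downward on the log2 scale in 75 members, at least 2 (4-fold) in 53 and at least 4 (16-fold) in 14, and the members ranged from -6.96 to 2.42. For 72 members every ST library lay below every NST library, as for 34.1% of all entries. The median member had a mean of 1.46 FPKM in rehydrated ST, 4.06 FPKM in PST and 14.2 FPKM in NST.

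These counts did not rest on a single library. The total of 74 lay between 69 and 72 when 1 of the 6 libraries was left out, and was 57, all lower, without both rehydrated NST libraries 0 and 1. Calls over all 18717 entries went from 10048 to between 8920 and 9546 with 1 library left out and to 6524 without both. Quantile normalization, which forces the same distribution on every library, moved the median of all entries by 0.19 in this comparison. After it 62 members were lower and 2 higher, and the median member difference was -1.87.

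Rewatered PST also lay below rewatered NST for many members. After rehydration 54 members were lower and 0 higher in PST than in NST, 55.7% of the members, where limma called 18.2% of all entries lower and 13% higher. The median difference was -1.32 over members and -0.06 over all entries, with 33 members at least 4-fold lower. By the group means of log2(FPKM + 1) 63 members were ordered ST, PST, NST from low to high, 20 had PST lowest and 7 had NST lowest. On the same scale rehydrated NST lay above NST at full turgor for 59 of the 97 members, and above ST at full turgor for 85. Rehydrated PST lay above ST at full turgor for 36 and rehydrated ST for 18. The full-turgor values of both tissues chose the members, so these counts against full turgor follow in part from the choice. They were not tested, and their shares over all entries were not taken. The PST total of 54 lay between 43 and 56 with 1 library left out and was 27 without both rehydrated NST libraries 0 and 1. Calls over all 18717 entries also fell, from 5824 to between 3630 and 5798 with 1 library left out and to 1352 without both.

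The change from 35% RWC to the rewatered state differed between the tissues. It spans the last drying as well as rewatering, because dry NST entered the choice of members. From 35% RWC to 48 h after rehydration limma called 1 member higher and 0 lower in ST, with 12 at an unadjusted p under 0.05, where 0.812% of all entries were higher and 0.652% lower. The median member change in ST was 0.08. In NST 70 members rose and 3 fell over the same interval, where limma called 29.6% of all entries higher and 22.5% lower. The median change in NST was 2.18 over members and 0.12 over all entries, and quantile normalization shifted the all-entry median by -0.19 and left 63 higher and 3 lower calls. The difference of these changes (ST minus NST) was negative in 55 members and positive in 3 past the threshold, where limma called 23% of all entries negative and 17.5% positive. Its median was -1.88 over members and -0.20 over all entries, and quantile normalization shifted the all-entry value by 0.26 and left 46 negative and 0 positive calls and a member median of -1.48. The total of 58 lay between 47 and 57 with 1 library left out, where calls over all 18717 entries went from 7577 to between 6698 and 7486. The single call in ST was lost without ST at 35% RWC library 0 or 1 or rehydrated ST library 0 or 1, and was 2 without rehydrated ST library 2.

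**Figure D5:**
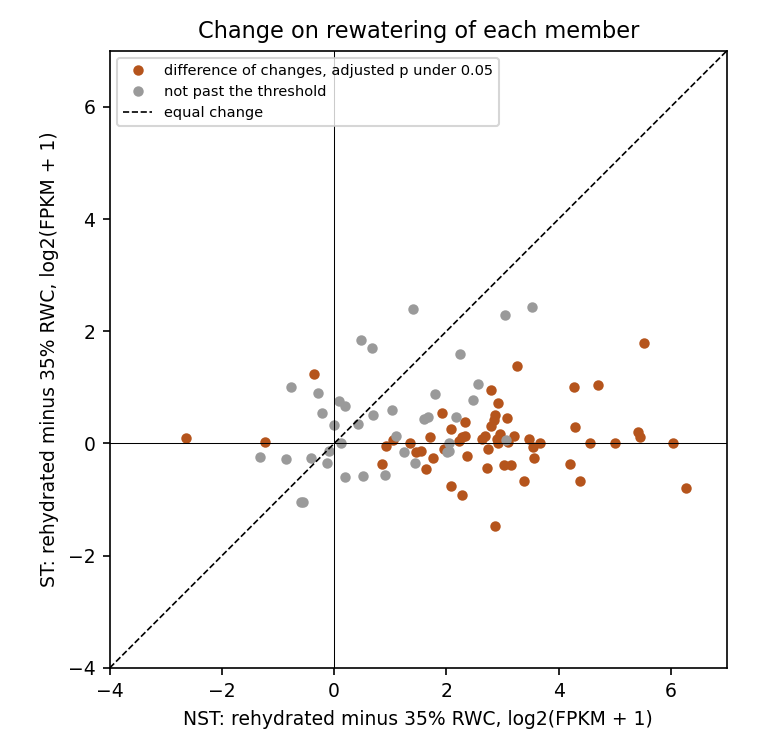
Change in log2(FPKM + 1) from 35% RWC to 48 h after rehydration in ST (vertical axis) against NST (horizontal axis), with 1 point per member, and orange where the difference of the changes had a limma adjusted p under 0.05. Members spread to 6.27 along the NST axis and most stay near 0 on the ST axis, with a median change of 0.08 in ST and 2.18 in NST.

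The members differed among themselves in how they behaved when rewatered. The 73 members lower in rewatered ST had a median of 0.850 FPKM in rehydrated ST, 2.96 FPKM in rehydrated PST and 14.2 FPKM in rehydrated NST. Over drying they were low in both tissues, with medians of 0.743 FPKM in ST and 1.77 FPKM in NST at 75% RWC and of 0.643 FPKM in ST and 1.22 FPKM in NST at <10% RWC. The 23 members without a call had higher class medians through drying, and their rehydrated medians were close in ST and NST. The lack of a call does not show that a single member had no difference. Their medians were 6.60 FPKM in ST and 9.93 FPKM in NST at 35% RWC, and 12.2 FPKM in ST, 10.1 FPKM in PST and 12.7 FPKM in NST after rehydration. The 1 member higher in rewatered ST averaged 76.5 FPKM there, 33.5 FPKM in PST and 13.8 FPKM in NST. These classes were formed on the rehydrated libraries, so the contrast between them at that stage follows from the grouping.

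The rewatering gap appeared in members of low and of high abundance. Of the members with a mean under 5 FPKM in NST at full turgor, 11 of 13 were lower in rewatered ST than in NST, with a median difference of -2.21. The counts were 32 of 41 at 5 to 10 FPKM (median -2.18), 22 of 32 at 10 to 50 FPKM (median -2.10), 4 of 5 at 50 to 100 FPKM (median -2.86) and 4 of 6 at over 100 FPKM (median -2.45). During drying the calls fell mostly on members above 10 FPKM. In those stages 0 of 13, 5 of 41, 12 of 32, 2 of 5 and 1 of 6 members of the same classes were lower in ST, with medians of -0.34, -0.18, -0.63, -0.56 and -0.93. Shares of all entries at the same levels were not taken. Whether these patterns by level are particular to the members was therefore not tested. Of the 20 members lower in ST during drying, 12 were also lower in ST after rehydration, which is 12 of the 73 called there. Of all 97 members 75.3% were called lower after rehydration, and whether the 12 of 20 differ from that share was not tested. The overlap of the 2 calls over all entries was not taken. The drying and rehydration comparisons share no library.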

How the data were processed

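The authors deposited 1 table of FPKM values with 1 column per library, rounded to 2 decimals. Bowtie2, TopHat and Cuffdiff were used, per the submitters' processing notes. The series' text adds that reads were mapped to the species' reference genome. Of versions, settings and scaling between libraries, the sources used here say nothing, and the unit was read from the tool and the values. The spacing of low values gave competing estimates of relative depth for some library pairs, so none is given.

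The member rule and all lists were chosen with earlier results of these data known. All parts of the rule were read on FPKM + 1, and with level and dry limits on FPKM itself 51 genes would be members. limma 3.58.1 in R 4.3.3 was fitted to log2(FPKM + 1) of 18717 entries over 51 libraries, with 1 mean per group, a variance trend and 34 residual degrees of freedom. Two-sided p-values were Benjamini-Hochberg adjusted within each of 13 comparisons, with a threshold of 0.05. IDs that occur more than once were tested as separate entries. Fold changes on this scale understate changes of low genes. In simulated data of 18717 entries, 100 entries were changed by each size. The fit recovered 25 (log2 change of 1) and 72 (log2 change of 2) for rehydrated ST against NST, with 2 false calls. For the average over drying it recovered 64 and 93, with 9 false calls. All other simulated entries were equal over the groups, and libraries with the same number did not deviate together. The data differ in both respects, so these shares do not give the recovery in the data.

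Groups came from the labels and columns were matched to them by name. Same-number libraries pair where every correlation of their deviations from the group means is over 0.1. This held for every tissue pair compared during drying and at <10% RWC (lowest 0.472) and at full turgor (lowest 0.676), from the data and not the labels. It did not hold after rehydration (lowest -0.06) or between stages, including full turgor against other stages (lowest -0.28). The IDs shown were the 2 lowest and 2 highest ST minus NST estimates over 75% to 35% RWC, called members first. Gene lists by name could not be used.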

Additional observations from a re-analysis of the deposited data

Results flagged for a closer look

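The change from 35% RWC to 48 h after rehydration differed between ST and NST by a test of the difference itself in 55 members with a smaller upward or more downward change in ST and in 3 members with the opposite (limma, adjusted p under 0.05). The share of all tested entries called in the same directions was 23% and 17.5%. Among the 4 members shown in full none passed, and the nearest was Xvis03_210497, with a difference of -3.001 and a standard error of 1.26 (limma, adjusted p = 0.0545). The cause of these differences was not tested.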

How the results depend on the processing

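The number of members called after rehydration, for ST or PST against NST, for NST against 35% RWC and for the difference of the changes, stayed within 1.5 times its value under a pseudocount of 0.1, a filter of 5 FPKM, no filter, quantile normalization, a fit of the compared groups alone, the replicate block and any 1 library left out. The exception is PST against NST without both rehydrated NST libraries 0 and 1, an alternative chosen after seeing the data, with 27. In that fit limma called 1352 of all 18717 entries. With the replicate block, whose numbers do not pair the rehydrated libraries, the counts were 80 (ST against NST), 73 (PST against NST), 74 (NST rehydrated against 35%) and 72 (difference). In the same order, these blocked fits called 12654, 9587, 10020 and 10989 of all 18717 entries. The replicate block gave 43 for ST against NST averaged over 75% to 35% RWC, 31, 21 and 4 at the single stages, 4 for PST against NST and 16 for dry ST against PST. The fit of the compared groups alone gave 11 for the average and 0 for ST against NST at 75% and 55% RWC (21 and 11 at an unadjusted p under 0.05), for dry ST against PST, for NST at 35% against 75% RWC and for rehydrated ST against 35% RWC (11 at an unadjusted p under 0.05). In the same order, these restricted fits called 1244, 4, 0, 1, 0 and 0 of all 18717 entries. At 75% RWC a pseudocount of 0.1 gave 2, a filter of 5 FPKM 2 and quantile normalization 3, quantile normalization gave 2 at 55% RWC, and a pseudocount of 0.1 gave 8 for dry ST against PST. With 1 library left out the totals ran from 13 to 27 for the average, 0 to 9 at 75%, 0 to 6 at 55%, 1 to 7 for dry ST against PST, 2 to 13 for NST at 35% against 75% RWC and 0 to 2 for rehydrated ST against 35% RWC. Calls over all 18717 entries ran from 1453 to 3251, 11 to 1446 and 6 to 881 for the first 3 of these. For the last 3 they ran from 729 to 2510, 1420 to 5536 and 30 to 358. The cause of these shifts was not tested. The filter of 5 FPKM leaves 90 members, and the fits on fewer groups or libraries have fewer samples. For the 4 IDs every other alternative kept the direction and the side of the threshold apart from those given beside them. Members near 0 FPKM while leaves dried limit what could be detected there, and fragments per library are unknown.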
